A study of Mus musculus with 9 samples.

Results

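The 6 genes described here encode cyclin-dependent kinase (CDK) inhibitors: Cdkn1a and Cdkn1b of the Cip/Kip family, and Cdkn2a, Cdkn2b, Cdkn2c and Cdkn2d of the Ink4 family. They were taken by name from the 27179 gene IDs of a table of RNA sequencing counts, and all 6 had enough counts to be tested. The table covers pneumospheres, which are spheres of cells grown in suspension from mouse embryonic lung, sampled on day 3, day 7 and day 10 of culture in 3 libraries per day. All 9 libraries came from C57/B6 lungs taken at E11.5 (the embryonic day) and carried no transgene or treatment that the labels name. The lungs were dissociated with trypsin and held for 1 h on ordinary plastic, to which mesenchymal cells attach. The cells left floating went to low-attachment plates at 5% oxygen and 10% CO2, in medium holding basic FGF (20 ng/ml), EGF (10 ng/ml), heparin, B27 and ITS supplements. They were split on days 3 and 7, so the libraries of days 3 and 10 followed 3 days, and those of day 7 followed 4 days, after the last plating. Whether replicate libraries were grown apart or came from different litters is not labelled, and the p-values then measure only the spread between these libraries, which may be technical. The comparisons ask how transcripts changed over the culture, which is the purpose the submitters state.

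Cells enter S phase when cyclin D with CDK4 or CDK6, and then cyclin E with CDK2, phosphorylate the Rb proteins and free E2F factors to drive the genes of DNA replication. Ink4 proteins bind CDK4 and CDK6 alone and keep cyclin D from joining them, whereas Cip/Kip proteins bind assembled cyclin and kinase complexes and chiefly inhibit CDK2. Cdkn1a (p21) is a direct target of p53, Cdkn1b (p27) accumulates in resting cells largely through slower breakdown of its protein, and Cdkn2a and Cdkn2b are held silent in young cells by Polycomb complexes and are often switched on when embryonic cells are grown in culture. Protein levels were not measured here.

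All 6 transcripts were higher on day 7 than on day 3, and 5 of the 6 were still higher on day 10 than on day 3. The gene without a call on day 10 was Cdkn2d. Cdkn2b rose most, 9.54-fold by day 7 and 17.4-fold by day 10, followed by Cdkn1a (5.30-fold and 6.67-fold) and Cdkn2a (4.67-fold and 6.32-fold). Between day 7 and day 10 none of the 6 was called in either direction.

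A gene was called when its Benjamini-Hochberg adjusted p, over the 14940 genes tested with edgeR's quasi-likelihood test, was under 0.05. On that rule 22.8% of all tested genes were called higher on day 7 than on day 3, and 29.5% were called higher on day 10 than on day 3. Calls in either direction covered 41.8% and 56.7% of genes, so a call alone was common. The median log2 change of the 6 genes was 1.79 by day 7 and 1.80 by day 10, against 0.00 for all tested genes in both comparisons. From day 7 to day 10, 4.41% of all genes were called higher and 4.1% lower (8.51% in either direction), and the median of the 6 genes was 0.17 against 0.00. In this last comparison 2 of the 6, Cdkn2b and Cdkn2d, had an unadjusted p under 0.05, and DESeq2 also called 0 of 6. Between those days 0 of 6 genes had all day 10 libraries above all day 7 libraries, where 13.4% of all tested genes did, and 1 of 6 (Cdkn2d) had all of them below, where 12.6% did. Day 7 libraries lay above every day 3 library for 6 of 6 genes, where 30.5% of all tested genes did so and 29.6% lay below. Day 10 libraries lay above every day 3 library for 5 of 6, where 32.5% did so and 31.9% lay below. Calls lower than day 3 covered 19% of all genes on day 7 and 27.2% on day 10, and 0 of the 6. The comparisons share libraries, so their values stand side by side and are not independent.

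**Figure D1:**
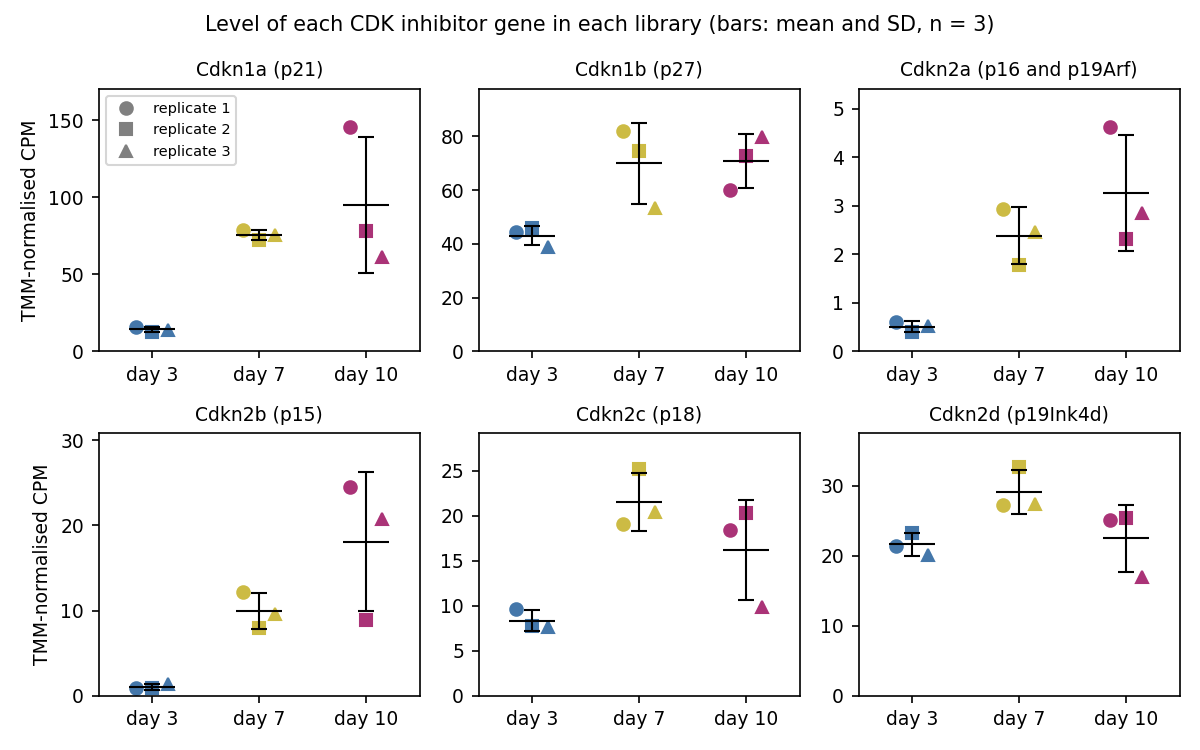
Level of each of the 6 genes in each library, in TMM-normalised CPM (counts scaled by the library total) on a linear axis from 0, by day of culture. Points are single libraries, with a shape for each replicate number, and bars are the mean and SD (n = 3). All 3 day 7 points lie above all 3 day 3 points in every panel, and the day 10 points spread more widely for Cdkn1a and Cdkn2b.

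Libraries held between 20716878 and 30466712 counts, and a count of 0 would allow up to 3 counts, or 0.0985 to 0.145 CPM. In one library, day 3 replicate 2, an unnamed gene ID took 6.79% of all counts, against 0.169% to 0.515% in the other 8. The label of an epithelium-enriched culture was checked against markers. Of 12 epithelial markers, Nkx2-1, Foxa1 and Shh had no count in any library and 3 could be tested (Epcam, Id2 and Sox2), and the summed level of the 12 was 33.7 to 42.0 CPM on day 3, 32.1 to 62.9 on day 7 and 18.1 to 23.7 on day 10. All 12 mesenchymal markers were tested, and their sum went from between 14651 and 16404 CPM on day 3 to between 28100 and 33692 on day 7 and between 42437 and 48236 on day 10. The mesenchymal sum thus far exceeded the epithelial sum in every library, and these markers did not bear out the label. Sums of different genes are not numbers of cells. Erythroid markers, 9 of 12 tested, summed to between 1070 and 1271 CPM on day 3, 7.20 to 8.27 on day 7 and 1.34 to 2.96 on day 10. Smooth muscle markers, 6 of 7 tested, summed to 234 to 249 CPM on day 3, 451 to 576 on day 7 and 407 to 822 on day 10, so they too were higher in every later library. The 8 endothelial markers summed to 181 to 219 CPM on day 3, were higher on day 7 (246 to 341) and lower on day 10 (127 to 141). The 10 neural markers summed to 169 to 219, 89.4 to 112 and 110 to 144 CPM on days 3, 7 and 10, the mesothelial markers (3 of 6 tested) to 68.9 to 90.1, 37.5 to 40.8 and 18 to 28.7, and the leukocyte markers (6 of 8 tested) to 11.2 to 18.3, 6.28 to 14.1 and 4.83 to 7.79. In bulk RNA, a change in the number of cells of a type and a change in RNA per cell cannot be told apart, and the part of these marker shifts in the changes of the 6 inhibitors was not tested.

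Cdkn1a encodes p21, which binds cyclin and CDK2 complexes and also PCNA. It lies on chromosome 17 (29090976 to 29100727, plus strand, GENCODE coordinates on GRCm38) and has 2 RefSeq start sites. The 250 bases before the first of them, chr17:29090729-29090978 on the plus strand of GRCm38.p6 in RefSeq, are shown because they hold the only near-complete p53 site found in the windows of the 6 genes. Capitals mark it.
Cdkn1a: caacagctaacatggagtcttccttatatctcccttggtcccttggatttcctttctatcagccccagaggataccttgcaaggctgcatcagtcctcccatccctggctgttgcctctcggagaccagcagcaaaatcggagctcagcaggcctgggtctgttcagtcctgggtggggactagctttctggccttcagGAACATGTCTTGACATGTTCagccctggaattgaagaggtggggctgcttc
The site, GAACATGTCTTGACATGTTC, runs from 51 to 32 bases before the start and differs by 1 base from the 20-base p53 consensus. Of 32851 windows of this length over all RefSeq starts, 25 (0.0761%) held a site with at most 1 mismatch and 3 (0.00913%) an exact one. The best matches before the starts of the other genes had 3 to 6 mismatches, and the second Cdkn1a start had 5. A match is a description of letters and not of binding.

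Cdkn1a was at 15.98, 12.6 and 14.2 CPM in the 3 day 3 libraries, 78.8, 72.1 and 75.5 on day 7, and 145.4, 78.3 and 61.6 on day 10. The day 7 libraries lay close together, all above day 3, while day 10 replicate 1 stood above the others and replicate 3 lay below the day 7 range. The change from day 3 to day 7 was 2.41 in log2 units (SE 0.28, adjusted p = 0.000173). From day 3 to day 10 it was 2.74 (SE 0.28, adjusted p = 4.2e-05). From day 7 to day 10 the estimate was 0.33 (95% interval -0.25 to 0.92, adjusted p = 0.485). Its direction rests on day 10 replicate 1, without which it was -0.11 (adjusted p = 0.632). A second gene model on the opposite strand, AC167363.2, overlaps Cdkn1a by 1046 bases, and it is not counted separately in the table.

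Cdkn1b encodes p27, which is set mostly by translation and by SCF-Skp2 ubiquitination and whose gene FoxO factors can raise. It was at 44.3, 45.8 and 39.0 CPM on day 3, 82.1, 74.5 and 53.3 on day 7, and 60.0, 72.8 and 79.8 on day 10. Every later library exceeded every day 3 library, and the days 7 and 10 ranges overlapped. Cdkn1b rose 1.63-fold from day 3 to day 7 (log2 0.70, SE 0.16, adjusted p = 0.00658) and was 1.65-fold above day 3 on day 10 (0.72, SE 0.16, adjusted p = 0.00368). The change from day 7 to day 10 was 0.02 (95% interval -0.34 to 0.37), and its sign turned with library size alone (-0.03) or without day 7 replicate 3 (-0.14), day 10 replicate 3 (-0.08) or day 10 replicate 2 (-0.00094). The third Cip/Kip gene, Cdkn1c (p57, imprinted and expressed from the maternal copy), was not among the 6. It had 399.8 ± 22.7 CPM (SD, n = 3) on day 3, 477.9 ± 54.2 on day 7 and 434.0 ± 62.5 on day 10. It was called in no comparison (adjusted p = 0.108 for day 7 against day 3, 0.52 for day 10 against day 7 and 0.416 for day 10 against day 3), and its level from day 3 to day 10 changed by 0.12 (95% interval -0.15 to 0.38). An antisense model, Gm44732, overlaps Cdkn1c by 892 bases.

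Cdkn2b (p15) and Cdkn2a (p16Ink4a and, from another first exon, p19Arf) are neighbours on chromosome 4, from 89306299 to 89311039 and from 89274471 to 89294653 on the minus strand. The first start of Cdkn2a is that of the p19Arf transcript and the second that of p16Ink4a, and the counts cannot separate them. The 250 bases before the RefSeq starts of both genes are shown on the minus strand of GRCm38.p6, at chr4:89311033-89311282 for Cdkn2b, chr4:89294620-89294869 for the first start of Cdkn2a and chr4:89282193-89282442 for its second, because the neighbouring genes rose together and differ in their sequence here. Capitals mark a CRE (TGACGTCA) or a GC box (GGGCGG, searched on both strands).
Cdkn2b: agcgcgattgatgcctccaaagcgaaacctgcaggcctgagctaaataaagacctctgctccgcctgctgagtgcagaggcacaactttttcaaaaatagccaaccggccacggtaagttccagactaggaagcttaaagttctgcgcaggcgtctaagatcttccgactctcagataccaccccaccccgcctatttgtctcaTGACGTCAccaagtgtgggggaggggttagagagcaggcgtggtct
Cdkn2a, first start: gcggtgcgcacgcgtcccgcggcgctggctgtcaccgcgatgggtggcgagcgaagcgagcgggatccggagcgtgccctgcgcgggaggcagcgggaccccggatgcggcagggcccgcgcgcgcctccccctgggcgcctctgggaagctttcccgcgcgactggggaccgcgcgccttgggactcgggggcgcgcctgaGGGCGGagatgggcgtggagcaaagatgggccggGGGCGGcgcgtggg
Cdkn2a, second start: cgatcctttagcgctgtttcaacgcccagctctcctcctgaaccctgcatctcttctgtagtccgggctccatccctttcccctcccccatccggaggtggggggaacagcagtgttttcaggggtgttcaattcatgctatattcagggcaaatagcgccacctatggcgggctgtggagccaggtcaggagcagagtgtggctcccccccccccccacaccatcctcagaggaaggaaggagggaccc
The CRE lies 46 to 39 bases before the Cdkn2b start and is in 1.55% of all windows, and a GC box is in 32.7%. The CCAAT box, in 33.8% of all windows, was before the starts of Cdkn1b and Cdkn2d only. The windows held 12 CpG for Cdkn2b, 40 for the first Cdkn2a start and 7 for the second, against a median of 6 over all windows. No window of the 6 genes held the E-box CACGTG, the E2F sequences TTTCGCGC or TTTGGCGC, the FoxO sequence GTAAACA or the palindrome GTCTAGAC, on either strand. These are in 6.02%, 0.654%, 3.17% and 0.167% of all windows. Other forms of these sites were not searched. The window shown for the first Cdkn2a start, for example, holds TTTCCCGC, a variant of the E2F sequence.

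Cdkn2b encodes p15, an Ink4 inhibitor that TGF-beta raises in many cells and MYC with Miz-1 (Zbtb17) represses. It was at 0.850, 0.868 and 1.41 CPM on day 3, 12.1, 7.94 and 9.64 on day 7, and 24.6, 8.93 and 20.8 on day 10. Day 7 and day 10 both cleared day 3, and on day 10 replicate 2 lay within the day 7 range while the other 2 lay above it. The rise was 3.25 by day 7 in log2 units (SE 0.41, adjusted p = 0.000267) and 4.12 by day 10 (SE 0.41, adjusted p = 3.5e-05). From day 7 to day 10 the estimate was 0.86 (95% interval 0.11 to 1.62, adjusted p = 0.143). Without day 10 replicate 2 this change was 1.19 with an adjusted p of 0.0150, so the lack of a call rests on that library. Of the 14940 tested genes, Cdkn2b ranked 147th by rise from day 3 to day 7 and 131st from day 3 to day 10.

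Cdkn2a was the lowest of the 6, at 0.607, 0.395 and 0.529 CPM on day 3, which were 15, 10 and 12 counts. It was at 2.93, 1.77 and 2.46 CPM on day 7 and at 4.61, 2.32 and 2.86 on day 10. All later libraries exceeded the day 3 libraries, and days 7 and 10 overlapped. The log2 change was 2.22 by day 7 (SE 0.35, adjusted p = 0.000731), 2.66 by day 10 (SE 0.35, adjusted p = 0.000125), and 0.44 from day 7 to day 10 (95% interval -0.22 to 1.09, adjusted p = 0.402).

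Cdkn2c (p18) and Cdkn2d (p19Ink4d) are the Ink4 genes that many embryonic tissues express. Cdkn2c was at 9.67, 7.77 and 7.58 CPM on day 3, 19.1, 25.1 and 20.4 on day 7, and 18.4, 20.3 and 9.81 on day 10. The day 7 libraries stood clear of day 3, and on day 10 replicate 3 fell to just above the highest day 3 library. The log2 change was 1.37 by day 7 (SE 0.25, adjusted p = 0.00208) and 0.95 by day 10 (SE 0.25, adjusted p = 0.0092), with -0.42 from day 7 to day 10 (95% interval -0.96 to 0.13, adjusted p = 0.328).

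Cdkn2d was at 21.4, 23.3 and 20.1 CPM on day 3, 27.2, 32.7 and 27.4 on day 7, and 25.2, 25.4 and 16.9 on day 10. All day 7 libraries exceeded day 3 and day 10, and day 10 overlapped day 3. It was called 1.35-fold higher on day 7 than on day 3 (log2 0.43, SE 0.15, adjusted p = 0.0462). That call did not hold with DESeq2 size factors in edgeR (adjusted p = 0.0511), with upper-quartile factors (0.0618), with library size alone (0.0587), or without any 1 of the 6 day 3 and day 7 libraries. By day 10 the change was 0.05 (95% interval -0.29 to 0.40, adjusted p = 0.786), and from day 7 to day 10 it was -0.37 (95% interval -0.72 to -0.03, adjusted p = 0.157).

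**Figure D2:**
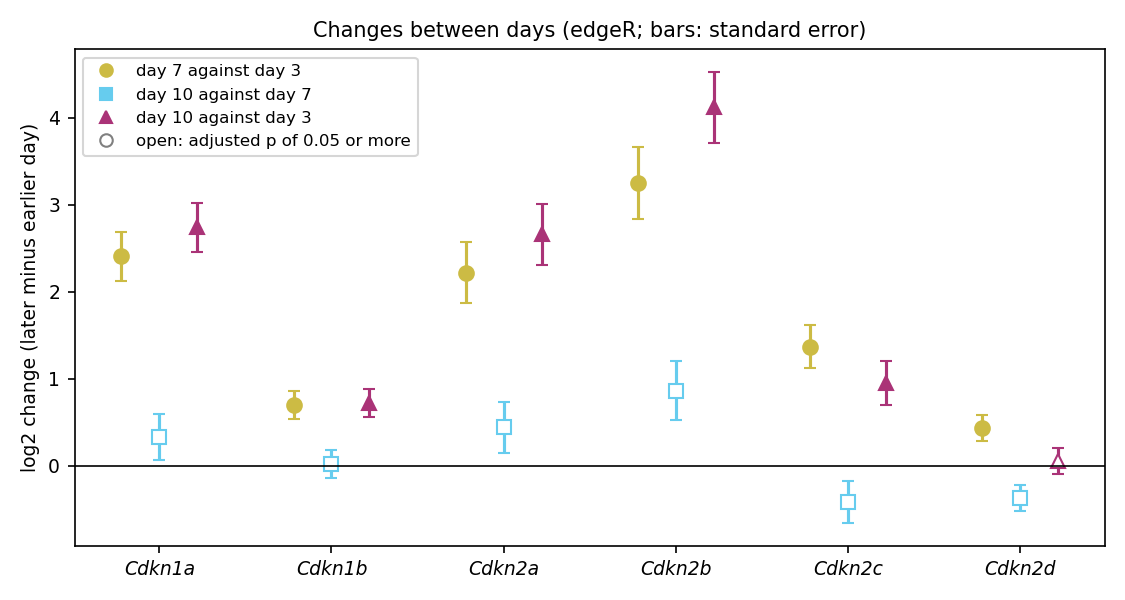
Fitted log2 change of the 6 genes in each comparison of days (later minus earlier), with the standard error as the bar. Filled symbols are called changes and open ones are not. The changes from day 3 lie above 0 for all 6 genes on both later days. They were called for 6 genes on day 7 and for 5 on day 10, where Cdkn2d (0.05) was not called. No change from day 7 to day 10 was called.

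The rise was set against the change that followed, by testing whether the second step (day 10 minus day 7) differed from the first (day 7 minus day 3). The steps span 3 and 4 days, so equal changes per step are not equal rates. The second step was smaller for all 6 genes as estimated, and the difference passed the test for 3. These were Cdkn1a (-2.08, SE 0.44, adjusted p = 0.0225), Cdkn2b (-2.39, SE 0.61, adjusted p = 0.045) and Cdkn2c (-1.78, SE 0.41, adjusted p = 0.0287). It did not pass for Cdkn2a (-1.79, adjusted p = 0.0766), Cdkn2d (-0.80, adjusted p = 0.0984) or Cdkn1b (-0.68, adjusted p = 0.178). Of all tested genes, 8.03% were called in this test, 5.96% lower and 2.06% higher. DESeq2 called 4 of the 6, no filter on low counts left 1, and leaving out single libraries left 0 to 4. The counts without a single library were 0 without day 3 replicate 2 and without day 7 replicate 1 or 2, and 1 without day 3 replicate 3 or day 7 replicate 3. Upper-quartile factors and library size alone each left 2, ending the Cdkn2b call (adjusted p = 0.0523 and 0.0527), and no filter ended the calls of Cdkn2b (0.0755) and Cdkn1a (0.0593). Without both day 3 replicate 2 and day 10 replicate 3 the Cdkn2b call was lost (0.114) and a Cdkn2d call was gained (0.0466). The Cdkn2b call was also lost without any 1 of the 6 libraries of days 3 and 7, the Cdkn2c call without any of those except day 3 replicate 1, and the Cdkn1a call without day 3 replicate 2 or any day 7 library. Calls were gained for Cdkn1b without day 7 replicate 3, for Cdkn2a without day 10 replicate 1 and for Cdkn2d without day 10 replicate 3. A block for the replicate number also gained the calls of Cdkn2a and Cdkn2d. A difference among the 3 days in any form was called for 5 of 6 genes (adjusted p from 0.000114 to 0.00632), with Cdkn2d at 0.0623, where 53.5% of all genes were called.

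To compare levels between the genes, CPM were divided by the exon-union length in kilobases. On day 3 Cdkn2d led with 13.7 ± 1.02 CPM per kb (SD, n = 3), followed by Cdkn1b with 9.45 ± 0.779. Cdkn1a was at 4.01 ± 0.478 and Cdkn2c at 3.10 ± 0.430, the only neighbours of that day whose libraries overlapped. Cdkn2b was at 0.750 ± 0.229 and Cdkn2a at 0.435 ± 0.0917. On day 7 the order was Cdkn1a (21.2 ± 0.936), Cdkn2d (18.5 ± 1.99), Cdkn1b (15.4 ± 3.28), Cdkn2c (8.02 ± 1.19), Cdkn2b (7.13 ± 1.52) and Cdkn2a (2.04 ± 0.497). The libraries of the first 3 overlapped from one to the next, as did those of Cdkn2c and Cdkn2b. On day 10 the order was Cdkn1a (26.8 ± 12.5), Cdkn1b (15.6 ± 2.21), Cdkn2d (14.3 ± 3.07), Cdkn2b (13.02 ± 5.87), Cdkn2c (6.02 ± 2.08) and Cdkn2a (2.79 ± 1.02). Each neighbouring pair in this last order overlapped in its libraries. With the length of RefSeq-matched transcripts, chosen after seeing the data, levels of Cdkn1a and Cdkn1b were over 1.5 times higher on every day: 6.99, 37.1 and 46.7 CPM per kb for Cdkn1a and 17.98, 29.2 and 29.6 for Cdkn1b on days 3, 7 and 10. Cdkn1b then came before Cdkn2d on day 3 (15.2) and on day 7 (20.45). The summed level of the 6 genes was 31.5 ± 1.62 CPM per kb on day 3, 72.3 ± 4.71 on day 7 and 78.4 ± 17.5 on day 10. Cdkn1a made up 12.7% ± 1.54, 29.5% ± 2.17 and 32.99% ± 7.89 of that sum on days 3, 7 and 10, and Cdkn2d 43.6% ± 2.10, 25.6% ± 2.64 and 18.4% ± 3.95. Cdkn2b made up 2.41% ± 0.879, 9.86% ± 1.95 and 16.5% ± 6.76. Cdkn1c, at 196.1, 234.4 and 212.9 CPM per kb, exceeded the sum of all 6 on each day.

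**Figure D3:**
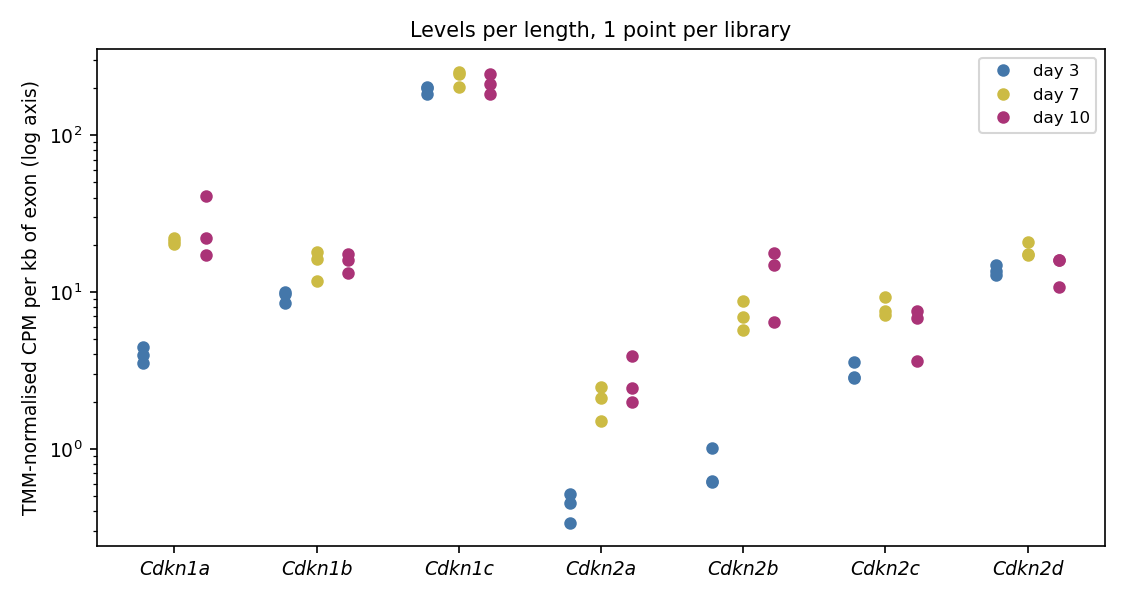
Level per length of the 6 genes and Cdkn1c (TMM-normalised CPM per kilobase of exon, log axis), with 1 point per library and a colour per day. Cdkn1c lies above all 6 on each day, Cdkn2d leads the 6 on day 3, and the highest point of the 6 is a day 10 library of Cdkn1a.

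Ratios within a library remove its scaling. The log2 ratio of Cdkn1a to Cdkn1b in CPM went from between -1.86 and -1.46 on day 3 to between -0.06 and 0.50 on day 7 and between -0.37 and 1.28 on day 10. For Cdkn2b to Cdkn2a it went from between 0.49 and 1.42 to between 1.97 and 2.17 and then 1.94 to 2.86. For Cdkn2c to Cdkn2d it went from between -1.58 and -1.15 to between -0.51 and -0.38 and then -0.78 to -0.32. The day 3 range did not overlap the day 7 or the day 10 range for any of the 3 ratios. Each such difference had p = 0.1 in a two-sided exact permutation test of 3 against 3 libraries, the smallest it can give, and 0.15 after Benjamini-Hochberg adjustment over 9 tests. These designs cannot go below 0.1.

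Genes most like each member were found by the root mean square difference in log2 CPM, each gene centred on its own mean over the 9 libraries, among the 9780 or 9781 genes that averaged 10 CPM or more. The nearest to Cdkn1a were Gas6 (0.21), Sele (0.23) and Pla2g4a (0.25), where the median over all genes compared was 1.25. To Cdkn2b they were Ephx1 (0.32), Cx3cl1 (0.37) and Steap4 (0.39), with a median of 1.77, and to Cdkn2a Ak1 (0.17), Naglu (0.21) and Grin2d (0.24), with a median of 1.14. To Cdkn2c they were Rasl11a (0.17), Pdgfb (0.19) and Btg2 (0.21), with a median of 0.67. To Cdkn1b they were Ccdc71l (0.08), Camkk1 (0.10) and Tmem159 (0.10), with a median of 0.43. To Cdkn2d they were Nabp1 (0.07), Mcu (0.11) and 4930579G24Rik (0.11), with a median of 0.33. The median was lower for the members that changed less, so distances are not comparable between members. Among the 6 genes, Cdkn1a and Cdkn2a were the most alike (0.26), and Cdkn2b and Cdkn2d the least (1.72). The distances describe the same 9 libraries and are not tests.

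The inhibitors sit among other genes of the G1 control, which are given by day 10 against day 3, by how many of the genes listed passed the test in each direction. Over all tested genes in that comparison, 29.5% were higher and 27.2% lower, which is the background for each count. The comparison does not show in which of the steps, before or after day 7, a gene changed. Of 9 G1 cyclins and kinases, 1 was higher (Ccnd3) and 6 were lower, with a median log2 change of -0.74 against 0.00 for all genes. Cdc25a, the phosphatase that activates CDK2, was at 84.8 ± 1.83 CPM on day 3 and 43.0 ± 4.02 on day 10 (SD, n = 3 each; adjusted p = 1.98e-05). Cdk2 was at 129.5 and 83.0 CPM (adjusted p = 2.29e-05), and Cdk4 at 494.8 and 303.2 (adjusted p = 0.000124). Of 17 Rb family and E2F genes, 3 were higher and 9 lower, with a median of -0.38. Rb1, a target of the kinases, was at 10.3 CPM on day 3 and 16.1 on day 10 (log2 0.65, adjusted p = 0.000275), and E2f2 fell from 17.6 to 5.27 CPM (-1.75, adjusted p = 0.00039).

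All 20 genes of S phase and mitosis were called lower on day 10 than on day 3, with a median log2 change of -1.39. All 20 were also called lower in all 18 alternative settings. By day 7, 4 of the 20 were called lower than on day 3 (median -0.45), where 19% of all genes were. From day 7 to day 10, when none of the 6 inhibitors was called, 8 were called lower (median -0.91), where 4.1% of all genes were. Over the alternatives these counts ran from 3 to 17 and from 0 to 19. Mcm3, a subunit of the helicase that unwinds DNA for replication, fell from 201.6 CPM to 98.1 (-1.04, SE 0.11, adjusted p = 3.88e-05), and Mcm6 from 282.6 to 142.8 (-0.98, SE 0.11, adjusted p = 4.12e-05). Of 14 tested genes tied to the ubiquitination of Cdkn1a and Cdkn1b proteins, 0 were higher and 10 lower, with a median of -0.54. Not all of them are ligase genes. Cdc34 is a conjugating enzyme and Cks1b an adaptor, both lower, and Usp19, not called, is a deubiquitinase. Fzr1, also lower, directs the breakdown of Skp2, so the 10 do not all act on p21 and p27 in 1 direction. Skp2, the F-box protein that marks p27 for breakdown, fell from 137.7 to 52.1 CPM (-1.40, SE 0.16, adjusted p = 7.62e-05). Dtl, which with Cul4 marks p21, fell from 81.6 to 32.4 CPM (-1.33, SE 0.18, adjusted p = 0.000207).

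Of 21 tested genes of p53 and its targets, a list that leaves out Cdkn1a, 16 were higher and 2 lower (Plk2 and Trp53 itself, named because the count was small), with a median of 0.73. Mdm2, Mdm4, Pmaip1 and Perp, also listed, were not called or could not be tested. Gdf15, a secreted factor, was at 0.162 CPM on day 3 and 6.83 ± 3.39 (SD) on day 10 (5.32, SE 0.45, adjusted p = 8.38e-06). Its day 3 level is near the floor of 3 counts, so the size of its change is imprecise. Fas, the death receptor, was at 0.435 and 6.55 CPM (3.88, SE 0.29, adjusted p = 3.52e-06). Gadd45a was at 7.75 and 30.5 CPM (1.98, adjusted p = 2.07e-05), and Sesn1 at 40.7 and 67.7 (0.73, adjusted p = 2.43e-05). Of 16 genes of TGF-beta and Smad input to Cdkn2b, 5 were higher and 2 lower, with a median of 0.05 that ran from -0.04 to 0.16 over the alternatives. The share higher was near the 29.5% of all genes. Tgfb1, a ligand of the pathway, rose from 31.4 to 60.9 CPM (0.96, SE 0.11, adjusted p = 4.97e-05), and Myc, a repressor of Cdkn2b, fell from 59.6 to 21.01 (-1.50, adjusted p = 2.79e-06).

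Of 26 Polycomb genes and other regulators of the Ink4 locus, 6 were higher and 11 lower, where 29.5% of all genes were higher and 27.2% lower, with a median of -0.14. The list is not of repressors alone. It includes the activators Kdm6b and Ets1, both among the 11 lower, and Ets2 and Dmtf1, which were not called. Ezh2, the methyltransferase of Polycomb complex 2, fell from 131.1 to 55.3 CPM (-1.25, SE 0.15, adjusted p = 9.2e-05), and Cbx2, a Polycomb complex 1 subunit, from 124.4 to 57.6 (-1.11, SE 0.09, adjusted p = 4.43e-06). Suz12 was at 135.5 CPM and 88.5 (-0.62, adjusted p = 5.9e-05), and Phc1 at 124.9 and 74.5 (-0.75, adjusted p = 1.63e-05). Of 11 tested genes of FoxO and PI3K input to Cdkn1b, 5 were higher and 2 lower, where 29.5% and 27.2% of all genes were, with a median of 0.21. Sgk1, a kinase that phosphorylates FoxO factors, rose from 31.6 to 128.0 CPM (2.02, SE 0.19, adjusted p = 2.14e-05), and Foxo1 fell from 88.9 to 35.8 (-1.31, adjusted p = 0.000279). Of 26 genes listed as markers of senescent cells, 19 could be tested, and 9 of these were higher and 6 lower, with a median of 0.63. None of Il6, Il1a, Il1b, Cxcl1, Cxcl2, Ccl7, Mmp13 and Areg was called, and most of them had too few counts to be tested. The list mixes markers that rise with markers that fall in such cells, so the median pools both. Among the 6 lower, Lmnb1, Hmgb1 and Hmgb2 are markers by their loss, and Igfbp3, Igfbp5 and Mmp12 by their rise. The share lower was near the 27.2% of all genes. Gdf15, given above, is also in this list. Igfbp7 was at 18.7 and 721.9 CPM (5.27, SE 0.29, adjusted p = 1.01e-06), and Glb1, the lysosomal galactosidase, at 45.7 and 95.5 (1.06, adjusted p = 9.67e-06). Igfbp5 was lower, at 17330 and 6368 CPM (-1.44, adjusted p = 7.79e-06).

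**Figure D4:**
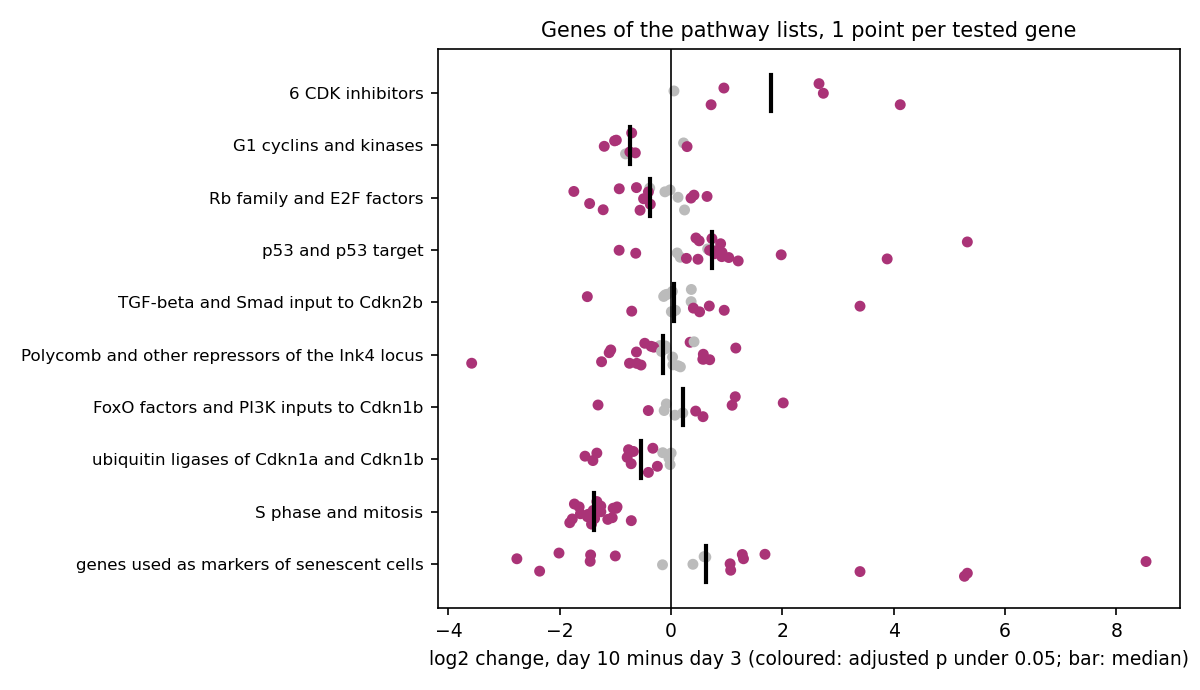
Log2 change from day 3 to day 10 of each tested gene of the 6 inhibitors and of 9 lists, with 1 point per gene, called genes in colour, others in grey, and a bar at the median of each list. All 20 S phase and mitosis genes were lower, and 16 of the 21 tested p53 genes were higher. The list labelled as repressors of the Ink4 locus also holds activators.

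Within day 10, the libraries were set beside the median S phase and mitosis gene, each on the log2 scale above its day 3 mean. That median was -1.07, -1.09 and -2.25 in replicates 1, 2 and 3, so replicate 3 was the lowest. Cdkn2c in the same order was at 1.14, 1.28 and 0.24, and Cdkn2d at 0.22, 0.23 and -0.35, also lowest in replicate 3. Cdkn1a was at 3.35, 2.46 and 2.11, and the p53 list median at 0.87, 0.70 and 0.38, both highest in replicate 1 and lowest in replicate 3. Cdkn1b ran the other way, at 0.48, 0.76 and 0.89, and Cdkn2b was lowest in replicate 2 (4.49, 3.04 and 4.26). With 3 libraries these orders carry no test.

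**Figure D5:**
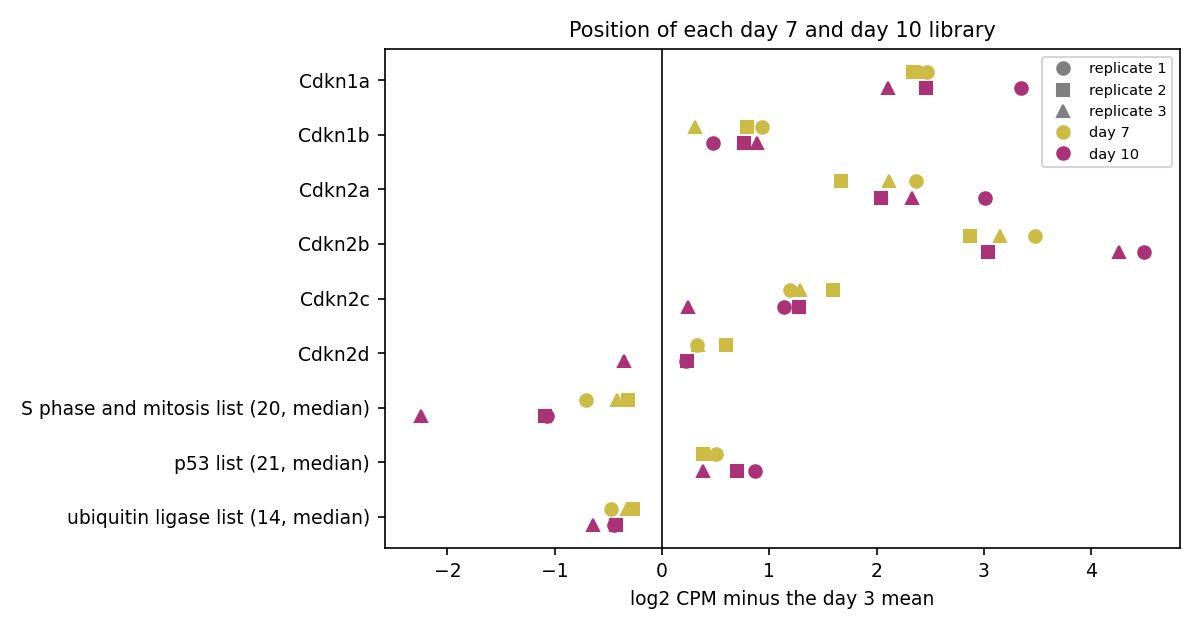
Log2 CPM of each day 7 and day 10 library minus the day 3 mean, for the 6 genes and for the medians of the S phase, p53 and ubiquitination lists. The ubiquitination list is labelled as ubiquitin ligase. Colours are days and shapes are replicate numbers. Day 10 replicate 3 has the lowest S phase and mitosis median (-2.25) and the lowest Cdkn2c of day 10 (0.24).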

How the data were processed

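Poly(A) RNA libraries, made with the Illumina TruSeq RNA kit per the labels' protocols, were measured in 3 groups of 3 by day. The authors deposited whole-number read counts per Entrez gene, made on mm10 with featureCounts, per the submitters' processing notes. For the aligner, annotation, use of strand and multi-mapping reads, settings were not given in the sources used here. Of 27179 IDs, 25275 were named from RefSeq and 18 from GENCODE, and 1886 stayed unnamed.

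Genes were kept by filterByExpr (14940) and fitted over all 9 libraries with edgeR 4.0.16 (R 4.3.3; TMM factors, robust quasi-likelihood, biological coefficient of variation 0.146). Adjusted p-values are Benjamini-Hochberg over all genes tested. Standard errors are the log2 change over the square root of F, and 95% intervals use the moderated degrees of freedom. Levels are TMM-normalised CPM, so library sizes of 20716878 to 30466712 counts bound the precision. The floor of 3 counts covers counting error alone, because PCR copies were not marked by molecular identifiers. The scripts were tested on simulated data. DESeq2 1.42.0 was an alternative, with other scalings, filters, samples and a replicate block. Named genes were the members, Cdkn1c, the 4 genes of each list with the lowest adjusted p in day 10 against day 3 and a mean of at least 5 CPM on some day, and the 3 genes most like each member. Some genes that the rule names are not reported here. The members, the lists and this rule were chosen with earlier results of these data known.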

Additional observations from a re-analysis of the deposited data

How the results depend on the processing

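No called result reversed under the alternatives run. The rises of Cdkn1a, Cdkn1b, Cdkn2a, Cdkn2b and Cdkn2c from day 3 kept their direction and call in all of them. Cdkn2d, day 7 against day 3, lost its call with DESeq2 size factors in edgeR (0.41), upper-quartile factors (0.38) and library size alone (0.39), and ran from 0.34 to 0.49 without single libraries. Day 10 against day 7, 1271 genes were called, and 2115 with DESeq2, 290 with only those 2 days and 304 to 1548 without single libraries, with 304 without day 7 replicate 2, 667 and 829 without day 7 replicates 3 and 1, and 780 and 807 without day 3 replicates 1 and 2. Higher calls were 659 and lower 612, and 437 and 675 with library size alone. Cdkn2b in that comparison ran from 0.59 to 1.19 without single libraries, and members called higher from 0 to 1.

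For the second step minus the first, calls were lost with no filter (-2.09 for Cdkn1a and -2.40 for Cdkn2b, 1 member called lower) and, for Cdkn2b, with upper-quartile factors (-2.33) and library size alone (-2.40). The Cdkn2b call held in 7 of 17 alternatives. DESeq2 gained the call of Cdkn2a (-1.78). Leaving out both day 3 replicate 2 and day 10 replicate 3 gave -1.76 for Cdkn1a, -2.40 for Cdkn2b, -1.47 for Cdkn2c and -0.69 for Cdkn2d. Without single libraries the range was -2.52 to -1.84 for Cdkn1a, -1.01 to -0.42 for Cdkn1b, -2.13 to -1.43 for Cdkn2a, -2.67 to -2.04 for Cdkn2b, -1.99 to -1.52 for Cdkn2c, -0.90 to -0.62 for Cdkn2d, and 0 to 4 members called lower. Same-numbered libraries correlated from -0.0694 to 0.433 in their deviations from the day means and others from -0.356 to 0.221. Day 3 replicate 2 correlated best with day 7 replicate 1 (0.129), so not every library was nearest its own number. Pairing by number was neither shown nor excluded, and as the labels state none, the main fit did not use it. With the replicate block, Cdkn2a was -1.79 and Cdkn2d -0.82, both called, and 5 members were called lower. The cause of these changes was not tested.

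With the length of RefSeq-matched transcripts, chosen after seeing the data, shares of the per-length total on days 3 and 7 were 15.8% and 35.8% for Cdkn1a, 40.4% and 27.9% for Cdkn1b, 6.98% and 7.74% for Cdkn2c. They were 6.86% on day 7 for Cdkn2b, 0.981%, 1.96% and 2.41% on days 3, 7 and 10 for Cdkn2a, and 34.2%, 19.7% and 14.02% for Cdkn2d. Cdkn2a rests on 10 to 15 counts per library on day 3, which limits its precision.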
